A study of Homo sapiens with 2 samples.

Results

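The genes described here encode the factors that start and extend protein chains on cytosolic ribosomes, with their close relatives and regulators. They were taken by name: every probe of the array whose platform gene symbol starts with EIF1, EIF2, EIF3, EIF4, EIF5, EIF6, EEF1 or EEF2. The rule gave 100 probes of 65 genes, out of 48802 probes and 18665 named genes on the array. EIF1AY, which lies on chromosome Y, belongs to the rule, but its values are not reported here, so values are given for 98 probes of 64 genes. Of those, 62 are genes of factors, factor relatives or regulators, and the others are a pseudogene, EIF3IP1, and a divergent non-coding transcript, EIF3J-DT. The platform annotation used here names no probe for EIF2B3, EIF4G3 or EEF1E1, which were not analysed here.

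Expression was measured in KYN2 cells, an established cell line from a human liver cancer (hepatocellular carcinoma). The array labelled HSF1 knockdown came from cells made stable for an shRNA plasmid against HSF1, the transcription factor of the heat shock response, by Oligofectamine transfection and puromycin. The other array came from KYN2 cells labelled as the control, and the labels do not say whether those carried a plasmid or were grown with puromycin. Nor do they say whether the knockdown line was 1 clone or a pool. Each group has 1 Illumina HumanWG-6 BeadChip array, so differences cannot be checked against replicates and no test was made.

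Translation begins when the small ribosomal subunit, held by eIF1, eIF1A, eIF3 and eIF5, receives the initiator tRNA from eIF2 and is brought to the mRNA cap by eIF4F. eIF2B recharges eIF2 with GTP, and stress kinases block that step by phosphorylating eIF2. eIF5B joins the large subunit, after which eEF1 delivers each aminoacyl-tRNA and eEF2 moves the ribosome along. Liver cells make large amounts of secreted protein, and many of these factors are abundant in them and in tumours derived from them.

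Both arrays had 48802 signals with a similar spread, with medians of 61.5 (control) and 59.8 (knockdown-labelled). Probes with a detection p under 0.01 count as detected, which held for 11707 and 12200 probes. The check of the labels through HSF1 was not settled. Its brighter probe went from a signal of 164.3 to 58.2, while its detection value went from 0.99473 to the maximum of 1, so every direction below rests on the labels. The dimmer HSF1 probe, at 77.9 and 81.3, was not detected on either array. Of 11 liver markers measured, the control array detected 9 and the other array all 11, with values that went both ways. ALB stood at signals of 19292.5 and 20949.9 (0.12 on the log2 scale). APOB fell from 2566.0 to 631.8 (-1.91) and APOH from 2769.8 to 924.7 (-1.43), the only liver markers that were lower. FOXA2 lay at 0.96, KRT8 at 0.94, TF at 0.81, SERPINA1 at 0.64, APOA1 at 0.30 and KRT18 at 0.22. The summed liver marker signals were 62543.5 (control) and 74382.2 (knockdown-labelled). AFP and TTR passed the detection limit on the knockdown-labelled array only. No measured marker of lymphoid, endothelial or stellate cells was detected on either array. Of 6 myeloid markers, the control array detected 1 and the knockdown-labelled array 3, with summed signals of 825.2 and 1435.5. LYZ went from 78.0 to 667.2 and CD14 from 76.0 to 256.7, while CD68 went from 521.9 to 353.5. CSF1R, ITGAM and TYROBP were not detected on either, and the part of these marker shifts in the results below was not tested. Each value is an average over a culture, in which fewer cells of a type and less RNA per cell cannot be told apart.

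As a group the translation factor genes lay slightly lower on the knockdown-labelled array, few of them by much. Signals were background-corrected, quantile-normalized and put on the log2 scale, and each difference is knockdown-labelled minus control for the gene's brightest probe. Of the 64 genes, 53 were detected on both arrays, 2 on the control array alone, 1 on the knockdown-labelled array alone and 8 on neither. Among the 53, 4 fell at least 2-fold, 0 rose at least 2-fold and 49 lay within 2-fold. The 4 were EEF2KMT, EIF2D, EEF2K and EEF1AKMT1. Over all 7511 genes detected on both arrays, 10.4% fell and 9.89% rose by that much, so the share of factor genes that fell, 7.55%, was near the background. The share that rose was below it.

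The shift was small and spread over most members. Their median difference was -0.22, which is 1.17-fold lower, against -0.06 over all genes detected on both arrays. Of the 53, 39 lay below 0, or 73.6%, against 53.3% of all genes. At 1.5-fold, 16 genes (30.2%) were lower and 1 (1.89%) was higher, against 22.3% and 20.8% of all genes. The middle 50% of factor genes ran from -0.66 to 0, and that of all genes from -0.52 to 0.46. The 2673 genes whose mean level lay within the interquartile range of the factor genes' levels had a median of -0.05, with 52.5% below 0. The error of 1 probe's difference, from the disagreement of 2 probes of the same gene over 1343 other genes, had an SD of 0.34. Many single differences given here are within or near that error. It leaves out the spread between cultures. Quantile normalization sets the overall scale, and with plain ratios of the signals the factor genes' median was -0.44, against -0.14 for all genes.

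**Figure D1:**
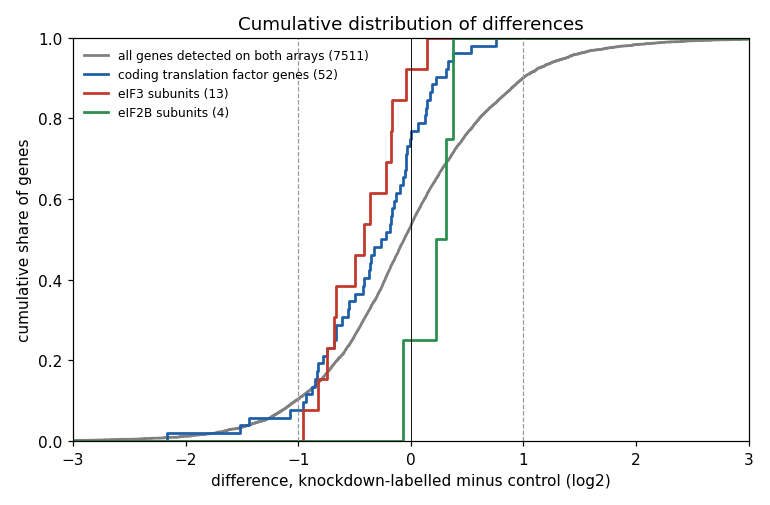
The horizontal axis is the difference between arrays on the log2 scale and the vertical axis the cumulative share of genes, for all 7511 genes detected on both arrays, the coding factor genes, the 13 eIF3 subunits and the 4 eIF2B subunits; dashed lines mark 2-fold. The factor and eIF3 curves lie left of the curve of all genes over most of their course and end before 1. The eIF2B curve lies right of the curve of all genes in its lower part only. It ends at 0.37, below the upper quartile of all genes, 0.46.

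Many mRNAs of the translation machinery start with a C followed by a run of pyrimidines, the terminal oligopyrimidine or TOP motif, through which mTORC1 controls how well they are translated. RefSeq start sites (GRCh38.p14) were found for 50 of the 64 genes. In 12 of those, or 24.0%, at least 1 annotated start was a C followed by 4 or more pyrimidines. The share was 5.14% over the 27305 genes in that table, detected here or not. The first 20 bases of the 12 starts are shown because they are the sequence feature that these members share. They are read in the direction of transcription, with the opening pyrimidine run in capitals.
EEF1A1 (chr6:73521013-73521032, minus strand): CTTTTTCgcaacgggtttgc
EEF1B2 (chr2:206159895-206159914, plus strand): CCTTTTTCCTCTCTTCagcg
EEF2 (chr19:3985444-3985463, minus strand): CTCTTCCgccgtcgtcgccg
EIF2A (chr3:150546787-150546806, plus strand): CTCTTTCCgggacaacatgg
EIF2D (chr1:206612446-206612465, minus strand): CCTTTTCgcggccgggcccc
EIF2S3 (chrX:24054956-24054975, plus strand): CTCTTTTggcaacatggcgg
EIF3D (chr22:36529147-36529166, minus strand): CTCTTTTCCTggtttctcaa
EIF3F (chr11:7987337-7987356, plus strand): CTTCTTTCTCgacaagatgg
EIF3K (chr19:38619188-38619207, plus strand): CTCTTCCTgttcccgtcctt
EIF3M (chr11:32583831-32583850, plus strand): CTTTTCCggtcggcgtggtc
EIF4A2 (chr3:186783577-186783596, plus strand): CTTTTCagtcgggcgctgag
EIF4B (chr12:53006456-53006475, plus strand): CTTTTgcgttctctttccct

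These 12 starts have pyrimidine runs of 5 to 16 bases, the longest in EEF1B2. The capitals describe an annotated start, which can be off by some bases, and are not a measured control site. All 12 genes were detected on both arrays, with differences from -1.52 (EIF2D) to 0.76 (EIF4A2), a median of -0.45 and 10 of 12 below 0. The 30 other factor genes with an annotated start and detected on both arrays had a median of -0.16, with 21 below 0.

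Subunits of eIF3, the largest initiation factor and the scaffold on which the small ribosomal subunit and eIF4F meet, lay lower almost throughout, none of them by 2-fold. All 13 subunit genes on the array were detected on both arrays, and 12 of 13 lay below 0, with a median of -0.41, or 1.33-fold lower. With plain ratios of the signals, 13 of 13 did. At 1.5-fold, 5 of 13 were lower and 0 higher, against 22.3% and 20.8% of all genes. EIF3D, a subunit that can bind the cap itself, had the largest difference, from a signal of 3143.4 to 1425.7, or -0.96. Normalized by the median in place of quantiles it passed 2-fold, at -1.04. EIF3K, one of the small peripheral subunits, went from 2708.3 to 1330.7 (-0.83), while EIF3L, which pairs with it in the complex, went from 2806.4 to 2632.1 (0.14). So the partners of that pair stood near opposite ends of the eIF3 range.

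The core of eIF3 is built around EIF3A and EIF3B. EIF3A, the largest subunit, had signals of 1152.4 and 640.1, a difference of -0.75. EIF3B has 3 probes, all lower: the brightest went from 6525.6 to 4545.0 (-0.36), the next from 1649.5 to 950.8 (-0.65) and the dimmest from 411.6 to 185.4 (-1.26). The probes of that gene share the direction and disagree on the size. EIF3G and EIF3I, which sit with EIF3B on the mobile part of the complex, lay at -0.41 and -0.50. EIF3J, a loosely held subunit that acts at the mRNA channel, had signals of 704.4 and 418.0 (-0.68).

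The remaining subunits lie in the PCI and MPN domain core. EIF3M went from 4435.5 to 2430.7 (-0.66) on its brighter probe and from 942.2 to 437.2 (-1.05) on its dimmer probe. EIF3C, at 195.0 and 172.8, lay at -0.17, and its other probe, at 148.9 and 109.8, at -0.63. Both EIF3C probes may also bind the near-identical copy EIF3CL. EIF3E, EIF3F and EIF3H lay at -0.22, -0.18 and -0.04. The signals of EIF3E were 11756.7 and 8680.7, those of EIF3F 3447.4 and 2619.4, and those of EIF3H 3045.6 and 2518.0. Within eIF3 the differences ran from -0.96 to 0.14.

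**Figure D2:**
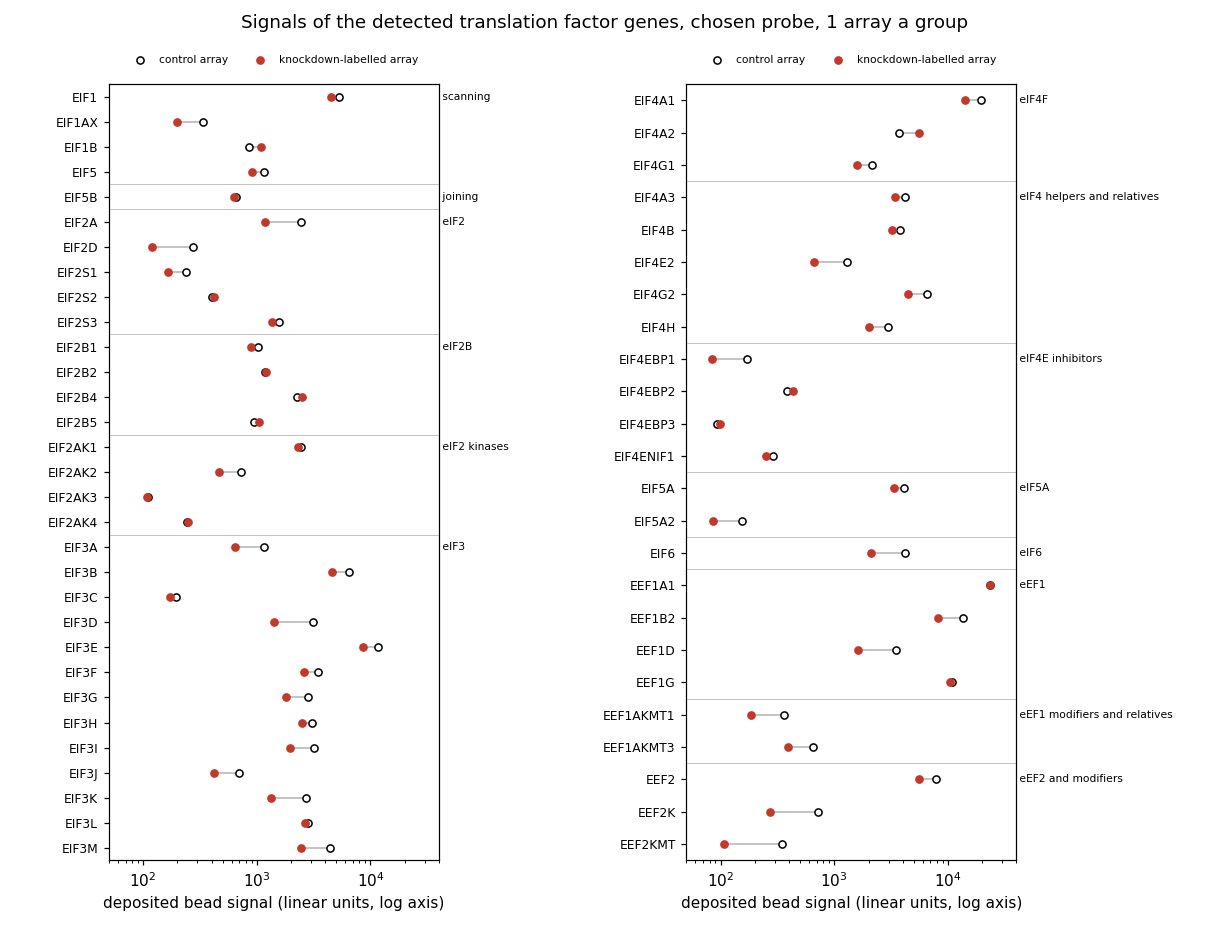
Deposited bead signals on a log axis for the chosen probe of each coding factor gene detected on at least 1 array, grouped by complex, with the control array as open circles and the knockdown-labelled array as filled circles. Filled circles sit left of open ones for most genes, with EIF4A2 and EIF1B among the exceptions.

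eIF2 and its relatives split by subunit. EIF2S1, the alpha subunit that stress kinases phosphorylate, went from 238.4 to 164.5, a difference of -0.61. EIF2S2, the beta subunit, stood at 404.5 and 421.0 (0.19), and EIF2S3, the gamma subunit that binds GTP and the initiator tRNA, at 1576.1 and 1369.6 (-0.01). The proteins that can place an initiator or other tRNA on the ribosome without eIF2 lay lower than the 3 subunits. EIF2D, which also helps recycle ribosomes, fell 2.86-fold, from 276.2 to 120.5 (-1.52). Its size depends on the background correction, and it was -1.20 as a plain log2 ratio of the signals. EIF2A, a separate protein despite its name, went from 2429.1 to 1180.3 (-0.85).

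eIF2B subunits, unlike most members, lay level or a little above 0, near the error of a probe. The 4 genes measured gave a median of 0.27, with 3 above 0 and 0 past 2-fold, and the same 3 were above 0 under each alternative scaling. The regulatory subunits EIF2B1 and EIF2B2 stood at signals of 1034.2 and 891.2 (-0.07) and of 1173.6 and 1212.2 (0.22). EIF2B4, also regulatory, had 2 detected probes that agreed closely, at 0.37 and 0.36, the brighter going from 2271.5 to 2505.1. EIF2B5, the catalytic subunit, went from 940.3 to 1037.0 (0.31). Each value is below or near the error of a probe, 0.34, and with plain signal ratios the median was 0.09.

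The kinases that phosphorylate eIF2 lay within 2-fold, each detected on both arrays. EIF2AK2, known as PKR and activated by double-stranded RNA, had the largest difference, from 726.2 to 468.8 (-0.55). EIF2AK1, the haem-regulated kinase that also relays mitochondrial stress, stood at 2430.9 and 2314.7 (0.17), and EIF2AK4, the sensor of uncharged tRNA, at 243.6 and 249.9 (0.13). EIF2AK3, the kinase of endoplasmic reticulum stress known as PERK, was dim at 110.9 and 107.9 (-0.06). So the set showed no common direction.

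Factors of scanning and start codon choice differed between relatives. EIF1, which keeps the ribosome scanning until the start codon is paired, stood at 5270.1 and 4519.6 (-0.05). EIF1B, its close paralogue, went from 860.7 to 1090.5 (0.53). EIF1AX, which acts on the small subunit with EIF1, went from 339.5 to 198.7 (-0.83) on its brightest probe. A dimmer EIF1AX probe was detected on the control array alone, at 101.3 and 75.4, and the remaining one on neither. EIF5, the GTPase activator of eIF2, stood at 1149.1 and 912.5 (-0.19), and EIF5B, which joins the subunits, at 662.6 and 633.4 (0.07). A dim EIF5 probe, detected on the knockdown-labelled array alone, went from 91.6 to 106.3.

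The cap-binding complex eIF4F showed opposite values for its interchangeable helicases. EIF4A1, the main helicase that unwinds leader sequences, went from 19644.2 to 14034.7, a difference of -0.42. EIF4A2, its paralogue, went from 3691.8 to 5524.3 (0.76, 1.69-fold), the largest increase among the members with values. The gap between the helicases was 1.18 on the log2 scale, or 2.27-fold, and the signs were the same in each alternative. EIF4G1, the scaffold, had a pair of detected probes at -0.27 and -0.41, with signals of 2161.1 and 1569.2 on the brighter. EIF4E, the cap-binding subunit, was not called detected, at signals of 84.6 and 73.4 and detection p values of 0.020 and 0.037 on its brighter probe. No level of EIF4E can therefore be compared.

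The promoter of EIF4A2 is shown as that of the member that lay highest. It is 1 of 2 members whose 250 bases before an annotated start hold GAANNTTC, the head-to-head pair of units from which heat shock elements are built. The bases are chr3:186783327-186783576 on the plus strand (GRCh38.p14, RefSeq), and the match is in capitals.
EIF4A2: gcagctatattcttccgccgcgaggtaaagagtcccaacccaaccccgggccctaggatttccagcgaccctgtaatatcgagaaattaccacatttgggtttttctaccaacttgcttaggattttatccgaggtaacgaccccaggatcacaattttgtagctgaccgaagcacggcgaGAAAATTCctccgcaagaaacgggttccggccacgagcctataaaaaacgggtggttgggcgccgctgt

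That match begins 69 bases before the start. The other member with GAANNTTC is EEF1B2. Such a pair is common, with 7.05% of all 27305 genes holding it in the same window against 4.0% of the 50 factor genes. The tail-to-tail pair TTCNNGAA was in 6.0% of factor genes (EIF3F, EIF4G2 and EIF5B) and in 8.12% of all genes. GAANNTTCNNGAA, a run of 3 units searched on both strands, which contains both pairs, was in 0 of 50 factor genes and in 0.557% of all genes. These are letters in a window and say nothing of binding.

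Helpers and relatives of eIF4F lay between 0 and -0.88, all 5 detected genes below 0. EIF4B, a cofactor of the helicase, stood at 3754.9 and 3249.1 (-0.03). EIF4H, a shorter cofactor of the same kind, had probes that disagreed. Its chosen probe went from 2995.1 to 2028.6 (-0.33) and a probe of like brightness from 3234.6 to 1708.8 (-0.73). The third EIF4H probe went from 462.4 to 89.9, below the detection limit, and was at least 7.8-fold lower on the normalized scale. Its plain log2 ratio was -2.36, a smaller fold, because the bound is taken after the background correction. EIF4E2, a cap-binding relative that represses translation, went from 1306.6 to 657.0 (-0.88). EIF4G2, known as DAP5, which drives translation without eIF4E, gave -0.37, -0.36 and -0.36 on its 3 probes, with signals of 6491.7 and 4476.6 on the brightest. EIF4A3, a helicase of the exon junction complex and not of eIF4F, stood at 4191.9 and 3448.9 (-0.10).

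Among the proteins that hold eIF4E, EIF4EBP1, the best known repressor that mTORC1 inactivates, was the lowest. It was detected on the control array alone, with signals of 170.4 and 84.3, and was lower by at least 2.48-fold on the normalized scale. Its plain log2 ratio was smaller, at -1.02, and the difference in the authors' deposited table was -0.98, under 2-fold. EIF4EBP2, its paralogue, went from 382.3 to 436.5 (0.33), and EIF4EBP3 was near the detection limit, at 92.9 and 98.7, and passed it on the knockdown-labelled array only. EIF4ENIF1, which carries eIF4E into the nucleus and to P-bodies, stood at 289.5 and 251.3 (-0.15). So the loss of detection concerned 1 of the 3 repressor paralogues.

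eIF5A, which frees ribosomes stalled on difficult peptide bonds and carries hypusine, was close to level. EIF5A stood at 4097.2 and 3320.3 (-0.13). EIF5A2, its tissue-restricted paralogue, was detected on the control array alone, at 153.8 and 86.1, and was at least 2.16-fold lower on the normalized scale. As a plain log2 ratio it was -0.84 and in the authors' deposited table -0.80, both under 2-fold. EIF6, which keeps the large subunit from joining too early and is needed to build it, went from 4171.6 to 2110.5 (-0.78). Its dimmer probe was detected on the control array alone, at 106.2 and 65.6.

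**Figure D3:**
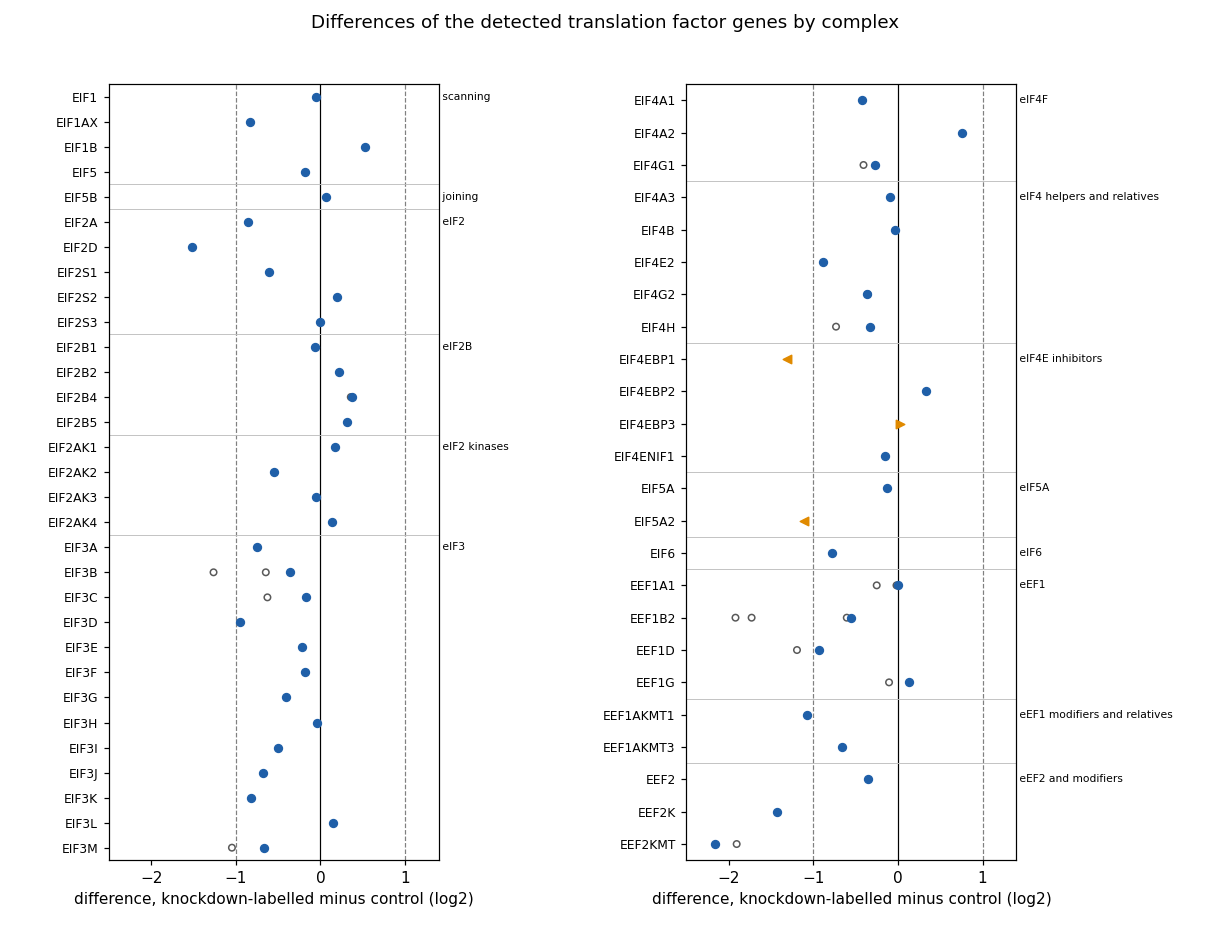
Differences between arrays on the log2 scale for coding factor genes detected on at least 1 array, grouped by complex. Filled circles are the chosen probe, open circles further probes detected on both arrays, and triangles the bound for genes detected on 1 array; dashed lines mark 2-fold, which EEF2KMT, EIF2D, EEF2K and EEF1AKMT1 pass on the lower side.

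The eEF1 subunits of elongation ranged from level to nearly 2-fold lower. EEF1A1, which delivers aminoacyl-tRNA, had 3 probes near the top of the signal range, at 23394.0 and 23387.6 on the chosen one. There its difference was 0, which quantile normalization sets for probes of equal rank, and the others gave -0.02 and -0.25. Signals so near the highest recorded, 23895.0 and 24818.2, can understate a change. EEF1D, of the exchange complex that reloads EEF1A with GTP, had the largest difference on the chosen probes, from 3497.3 to 1615.3 (-0.93), and -1.19 on its other detected probe. By the mean of a gene's probes EEF1B2 was lower than EEF1D, at -1.20 against -1.06. EEF1G, the structural subunit of that complex, stood at 10937.3 and 10328.6 (0.13), and at -0.10 on its other probe. EEF1A2, the form of muscle and neurons, was not detected.

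EEF1B2, the catalytic exchange subunit, was measured by 4 probes that fell into 2 pairs. The bright pair went from 13627.1 to 8217.3 (-0.56) and from 13606.6 to 8115.8 (-0.60). In the dimmer pair the signals went from 2182.1 to 614.1 (-1.73) and from 1989.1 to 499.6 (-1.92). The direction was shared and the range of 1.36 was the widest among the 12 factor genes with more than 1 probe detected on both arrays. The platform annotation assigns the probes to 3 transcript records of the gene, with a bright and a dim probe on the same record. Whether transcripts or probe behaviour differ was not tested. The mean of its probes passed 2-fold. Across the 12 genes the median range between probes was 0.26, and 10 of 12 had all probes on the same side of 0.

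Of the 4 factor genes that fell, 3 encode enzymes that modify elongation factors. EEF2, the translocase, had a modest difference, from 7781.4 to 5576.7 (-0.35). EEF2KMT, which methylates EEF2 on a lysine, fell 4.48-fold, from 347.5 to 106.4 (-2.16), and its other probe from 255.8 to 96.0 (-1.91). Both signals on the knockdown-labelled array are near the detection limit, and the plain log2 ratio of the chosen probe was -1.71. EEF2K, the kinase that halts elongation by phosphorylating EEF2, fell 2.70-fold, from 714.2 to 271.3 (-1.43). EEF1AKMT1, a lysine methyltransferase of EEF1A, fell 2.10-fold, from 363.3 to 184.8 (-1.07), but lay under 2-fold in 4 of 7 alternatives. EEF1AKMT3, another of those enzymes, went from 654.2 to 393.1 (-0.66). Of the 9 elongation factor and regulator genes detected on both arrays, 3 fell, against 10.4% of all genes, EEF1AKMT1 among them.

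The promoter of EEF2K is shown as that of the lower member with a CACGTG box, the site class of MYC and its relatives, which are known regulators of growth genes. CACGTG was in 12 of 50 factor genes, or 24.0%, within 250 bases before an annotated start, against 7.73% of the 27305 RefSeq genes. Those 27305 include genes not detected here, and such a box is letters in a window that say nothing of binding. The bases are chr16:22206028-22206277 on the plus strand (GRCh38.p14, RefSeq), with the box in capitals.
EEF2K: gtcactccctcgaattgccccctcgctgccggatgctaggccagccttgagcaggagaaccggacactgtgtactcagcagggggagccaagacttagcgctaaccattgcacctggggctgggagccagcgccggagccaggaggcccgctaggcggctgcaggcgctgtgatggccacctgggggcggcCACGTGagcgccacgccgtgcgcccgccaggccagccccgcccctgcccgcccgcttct

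The box begins 59 bases before the start. Of the 12 genes with a box, 9 were detected on both arrays, with a median of -0.27, 8 of 9 below 0 and a range from -1.43 (EEF2K) to 0.53 (EIF1B). The 33 such genes without a box had a median of -0.17, with 23 below 0.

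Genes that act on or with these factors were described in 9 further lists, by the same count and median. Those that build the hypusine of EIF5A and the diphthamide of EEF2 lay lower in every case. All 8 genes detected on both arrays lay below 0, with a median of -0.67. That median was smaller in size in each alternative scaling, from -0.46 in the authors' deposited table to -0.54 with median scaling. DPH7 and DPH3 alone, at -0.12 and -0.29, lay within the error of a probe, 0.34. Of the 8, 2 fell at least 2-fold and 0 rose, against 10.4% and 9.89% of all genes. They were DPH5, the methyltransferase of diphthamide synthesis, from 871.8 to 308.6 (-1.49), and DNAJC24, a J-domain protein needed to make it, from 193.0 to 97.1 (-1.39). In the authors' deposited table DNAJC24 lay under 2-fold, at -0.94, which leaves DPH5 alone past it. DPH6, the last enzyme, was detected on the control array alone, at 154.3 and 80.4, and was at least 2.17-fold lower on the normalized scale, with a plain log2 ratio of -0.94 and -0.90 in the authors' deposited table. DPH2, of the first step, went from 2455.4 to 1198.3 (-0.84), and DPH1, its partner in that step, from 137.9 to 95.0 (-0.82). The last DPH1 signal is near the detection limit. For DPH1 the plain log2 ratio was -0.54 and the difference in the authors' deposited table -0.52.

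Termination and recycling genes split evenly, 3 of 6 above 0, with a median of 0.14 and none past 2-fold. The release factor genes ETF1, which reads stop codons, and GSPT1, its GTPase partner, lay at 0.89 and 0.70, and the rescue factor PELO at 0.67. ABCE1, which splits ribosomes, lay at -0.69. Initiation helpers had a median of 0.02 over 9 genes, none past 2-fold, from DDX3X (0.82), a helicase of structured leaders, to ABCF2 (-0.58). PDCD4, which blocks EIF4A, lay at 0.57. BZW1 was detected on the control array alone, at signals of 100.5 and 70.9. Of 5 genes of poly(A) binding, 1 fell at least 2-fold and 0 rose, against 10.4% and 9.89% of all genes, with a median of -0.36. The gene that fell was LARP4, which protects poly(A) tails, from 445.8 to 198.0 (-1.26). PAIP2, an inhibitor of poly(A)-binding protein, lay at 0.72. Genes of EIF6 release and large subunit maturation had a median of 0.01 over 4, with EFL1 and SBDS, which remove EIF6, at 0.42 and 0.41, and NMD3 and LSG1 at -0.38 and -0.45.

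Of 10 genes of mTORC1 and S6 kinase signalling detected on both arrays, 2 rose and 1 fell, against 9.89% and 10.4% of all genes, and the median was 0.10. DEPTOR, an inhibitor of mTOR, rose from 119.5 to 228.7 (1.29) and RPS6KA3, an S6 kinase of the MAPK route, from 241.8 to 437.3 (1.08). RPS6KA1, its paralogue, fell from 281.8 to 149.0 (-1.09), and RPS6KB1, the main S6 kinase, lay at -0.77. None of the 3 calls held as plain signal ratios or in the authors' deposited table, where DEPTOR, RPS6KA3 and RPS6KA1 lay at 0.94, 0.94 and -0.86. Genes of the eIF2 stress response, the transcription factor ATF4 and its targets, had 2 of 8 higher and 0 lower, against the same 9.89% and 10.4%. Their median was 0.13, but -0.07 with plain signal ratios and -0.09 without ATF4. PPP1R15A, which recruits the phosphatase that reverses eIF2 phosphorylation, rose from 531.0 to 1475.6 (1.71), and ATF3, a stress transcription factor, from 109.0 to 229.7 (1.51). ASNS, an asparagine synthetase, and DDIT3, a factor of stress-induced death, lay on the other side, at -0.53 and -0.48. ATF4 itself lay at 0.43 and was named after its value was seen.

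Mitochondrial translation factors, relatives of the cytosolic ones, had 2 of 10 lower and 0 higher, against 10.4% and 9.89% of all genes, and a median of -0.26. MTIF2, the mitochondrial counterpart of EIF5B, fell from 1466.3 to 496.2 (-1.48), and MTRFR, a rescue factor, from 270.4 to 135.1 (-1.23). In the authors' deposited table MTRFR lay under 2-fold, at -0.95. GFM1, the counterpart of EEF2, lay at -0.52, and MTRF1L, a release factor, at 0.38. Among 5 selenocysteine factors, PSTK, a kinase of the selenocysteine tRNA route, rose from 213.8 to 367.0 (1.01) against 9.89% of all genes, 0 fell and the median was 0.54. PSTK lay under 2-fold in 4 of 5 alternative scalings, at 0.86 in the authors' deposited table. SECISBP2, which binds the selenocysteine insertion element, lay at 0.83.

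**Figure D4:**
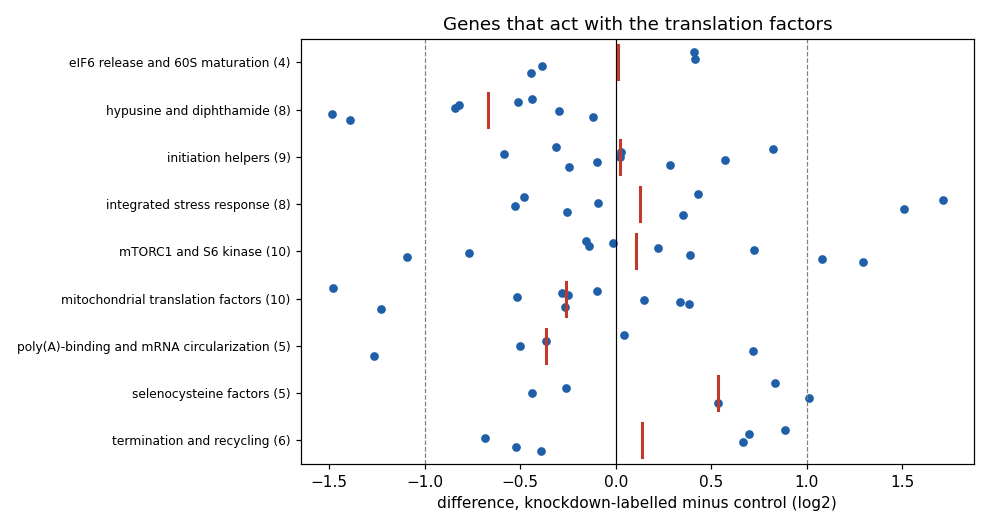
Differences between arrays on the log2 scale for the genes of each related list detected on both arrays, with their number in brackets, red bars for the list medians and dashed lines at 2-fold. All 8 hypusine and diphthamide genes lie left of 0, while the 6 termination and recycling genes fall on both sides.

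The members not detected on either array were EEF1A2, EEF1AKMT2, EIF1AD, EIF3IP1, EIF4E, EIF4E1B, EIF4E3 and EIF5AL1. Their signals lay between 41.7 and 87.0, within the range of background, so that absence of a call does not show absence of the transcript. EIF3J-DT, the non-coding transcript beside EIF3J, was just detected at 100.1 and 106.4 (0.14).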

How the data were processed

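The deposited table of non-normalized Illumina signals holds bead intensity on a linear scale, uncorrected as far as the file headers say, for 1 control and 1 HSF1-knockdown array. Its detection columns, deposited as a p, hold a fraction that rises with brightness and were taken as its complement. The authors also deposited a table of processed values on a log2 scale, with column medians of 0.00222 and -0.00275. Its baseline is unknown, so only differences between its columns were used, which followed the signal ratios with slope 0.981 and r = 0.996 across probes. How the authors made either table is not given in the sources used here.

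In R 4.3.3 the neqc function of limma 3.58.1 was run on the signals (normal-exponential background, offset 16, quantile normalization, log2), and tables were made in Python 3.11.15. Of the probes, 27577 have 1 symbol in the platform annotation, 13 have several and 21212 have none. All 65 member symbols matched the NCBI gene table. The probe with the highest mean level stands for its gene. For a gene detected on 1 array, the bound uses the other array's limit or the gene's own level there, whichever is higher. The limit is an array's lowest detected level, 5.84 for the control and 5.70 for the knockdown-labelled array. The brighter HSF1 probe was left out of that minimum, because its detection value breaks the order of the signals. As the bound follows background correction, it can exceed the plain signal ratio. Every member gene detected on either array is named. In each related list the genes past 2-fold are named, with up to 4 with large differences and those detected on 1 array alone. DPH3, DPH7 and ATF4 were named besides. With 1 array a group there is no test and calls rest on size alone. The procedure was also run on simulated arrays. These were made from the control array and held no spread between cultures, so they cannot show how reliable the calls are. The members and lists were chosen with earlier results of these data known.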

Additional observations from a re-analysis of the deposited data

How the results depend on the processing

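The 2-fold calls, the factor genes' median and the medians of eIF3, eIF2B, eIF4F and eEF1 were recomputed without background correction, with median scaling, as plain signal ratios, with an offset of 50, from the authors' processed table, with the mean of a gene's detected probes and at a detection p under 0.05. No median changed sign. The count of lower genes, 4, ran from 3 to 6, but was 7 with plain signal ratios; the higher count stayed 0. At 1.5-fold the counts were 16 lower and 1 higher. The factor genes' median of -0.22 was -0.44 with plain ratios, -0.34 with the mean of probes, -0.32 with median scaling and -0.30 at the looser detection limit. The eIF3 median of -0.41 was -0.62 with plain ratios and -0.51 with median scaling, the eIF2B median of 0.27 was 0.094 with plain ratios, the eIF4F median of -0.27 was -0.46 with plain ratios, and the eEF1 median of -0.28 was -0.58 with the mean of probes, where EEF1B2 and EEF1D passed 2-fold. Plain ratios leave the arrays' overall scale uncorrected. Taking for each gene the probe with the smallest difference, an alternative chosen after seeing the data, gave 4 lower genes. EEF2KMT, EEF2K and EIF2D were lower by 2-fold in each setting with that threshold. Of the 11 genes of the related lists past 2-fold, 5 stayed past it in each of 5 scalings tried after seeing the data, and DEPTOR, DNAJC24, MTRFR, PSTK, RPS6KA1 and RPS6KA3 did not. No paired analysis was possible because each group has 1 array, and for the same reason no array could be left out. Signals near the detection limit and near the top of the range limit what sizes can be read.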
